A study of Mus musculus with 5 samples.

Results

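The regions described here are the sites of open chromatin that differed, or did not differ, between mouse mesoderm (MES) and the hemangioblast (HB) derived from it in culture. Each deposited DNaseI hypersensitive site (DHS) of the MES and HB lists was set to a 500 bp window around its middle, and windows sharing 25% or more of that length were merged into 1 region. The 21949 MES sites and 24729 HB sites, which were 46678 of the 135173 sites in the 5 lists of the series, gave 28891 regions. Of these, 4162 (14.4%) held a MES site only, 6942 (24%) an HB site only, and 17787 (61.6%) a site of both lists. Every region held at most 1 site of each list. The shared regions were 81.0% of the MES regions and 71.9% of the HB regions.

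DNaseI digestion followed by sequencing was used to map open chromatin along the path from embryonic stem (ES) cells to blood, and the question here is which sites opened or closed at its earliest mesodermal step. Both populations came from 1 mouse ES line of strain 129 that carried a GFP reporter of brachyury, grown on embryonic fibroblast feeders and then differentiated into embryoid bodies. MES cells were sorted as brachyury-GFP+ and FLK1-, and HB cells as brachyury-GFP+ and FLK1+. The other lists were hemogenic endothelium (HE), sorted as Tie2+/cKit+/CD41-, blood progenitors (HP) that carried CD41, and CD11b+ macrophages (MAC). The MAC list combines 2 replicates by its label. These later cells came from further culture of FLK1+ cells with added cytokines. Neither MES nor HB cells carried a further mutation or treatment, and FLK1, the product of Kdr, was the single marker that separated the gates. Each stage had 1 list of sites with no height or read count, so no comparison could be tested. The intervals below are 95% Wilson intervals that cover counting error only, and the sequencing depth behind a site was not used here.

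A DHS is a stretch where nucleosomes have given way to bound transcription factors, and it marks promoters as well as enhancers. Brachyury (T) is a T-box factor of the primitive streak and nascent mesoderm. Part of this mesoderm acquires FLK1, the receptor for VEGF-A, and becomes the hemangioblast, a transient precursor of blood, endothelium and smooth muscle, in which ETV2, TAL1, LMO2 and GATA2 act. GATA factors bind the letters AGATAA, TEAD factors are the DNA-binding partners of the Hippo effectors YAP and TAZ, and OCT4, encoded by Pou5f1, binds the octamer.

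A set of 6 stretches is shown first, taken from changed promoters of stage genes and from changed regions with the most kinds of consensus, so that the letters compared below can be seen in place. Each is the central 200 bp of a changed region on the plus strand of GRCm38 (the coordinates of mm10), read from the RefSeq assembly, and the capitals mark matches on either strand to any of the 23 consensus sequences listed below. The promoter at Tal1 was open in HB alone and that at Pou5f1 in MES alone. The regions 30.2 kb upstream of Kdr and 64.0 kb upstream of Lmo2 had the most kinds of consensus, 4 each, among the HB-only regions nearest to the 12 genes followed in detail. The region upstream of Runx1 that was open in MES alone had the most, 3 kinds, among the MES-only regions beyond 2 kb of a TSS that were nearest to these 12 genes. A further HB-only region, in a Runx1 intron, was added after the values were seen, since it holds AGATAA in 2 copies with a TEAD match.
Tal1 promoter, HB only, chr4:115056666-115056865: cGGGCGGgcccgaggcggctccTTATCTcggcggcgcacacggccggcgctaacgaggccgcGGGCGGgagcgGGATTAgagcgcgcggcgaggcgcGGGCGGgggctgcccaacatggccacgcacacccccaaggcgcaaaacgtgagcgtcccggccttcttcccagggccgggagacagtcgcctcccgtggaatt
Pou5f1 promoter, MES only, chr17:35504792-35504991: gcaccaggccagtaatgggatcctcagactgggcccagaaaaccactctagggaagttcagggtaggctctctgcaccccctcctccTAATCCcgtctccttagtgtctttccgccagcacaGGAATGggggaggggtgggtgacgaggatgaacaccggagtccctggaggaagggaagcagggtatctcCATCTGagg
Kdr upstream, HB only, chr5:76008550-76008749: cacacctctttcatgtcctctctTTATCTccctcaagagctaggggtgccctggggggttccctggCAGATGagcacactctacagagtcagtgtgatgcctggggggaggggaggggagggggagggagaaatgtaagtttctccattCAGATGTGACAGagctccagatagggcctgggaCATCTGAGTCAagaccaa
Lmo2 upstream, HB only, chr2:103893848-103894047: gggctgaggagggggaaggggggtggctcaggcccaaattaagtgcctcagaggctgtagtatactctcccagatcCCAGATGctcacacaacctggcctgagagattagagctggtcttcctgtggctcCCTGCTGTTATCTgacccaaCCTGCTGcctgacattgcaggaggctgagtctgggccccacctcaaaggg
Runx1 intron, HB only, chr16:92715697-92715896: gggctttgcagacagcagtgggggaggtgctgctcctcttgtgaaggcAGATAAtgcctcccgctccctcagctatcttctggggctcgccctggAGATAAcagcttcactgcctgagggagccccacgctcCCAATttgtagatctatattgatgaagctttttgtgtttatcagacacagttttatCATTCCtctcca
Runx1 upstream, MES only, chr16:92996932-92997131: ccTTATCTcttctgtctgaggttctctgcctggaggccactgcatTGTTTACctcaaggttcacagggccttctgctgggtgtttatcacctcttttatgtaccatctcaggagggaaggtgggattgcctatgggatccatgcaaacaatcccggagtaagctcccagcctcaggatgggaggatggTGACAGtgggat

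In the Tal1 promoter stretch the capitals are 1 GATA match (TTATCT, the complement of AGATAA), 3 GC boxes of KLF and SP factors (GGGCGG) and 1 OTX/GSC match (GGATTA). In the Kdr stretch they are a GATA match, E-boxes of the TAL1 kind (CAGATG or CATCTG), a MEIS match (TGACAG) and an AP-1 match (TGAGTCA). The Lmo2 stretch held a GATA match, a TAL1-type E-box that is also the HAND/TWIST consensus, and ZIC matches (CCTGCTG). The Pou5f1 stretch, open in MES alone, held a TEAD match (GGAATG), an OTX/GSC match and a TAL1-type E-box, and no GATA match. The MES-only stretch near Runx1 did hold 1 GATA match, beside a FOX match (TGTTTAC) and a MEIS match. A match describes letters and shows no binding.

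Changed and shared regions differed in where they lay. The middle of a shared region was within 2 kb of a protein-coding transcription start site (TSS), here called a promoter region, in 59.7% (59.0 to 60.5) of 17787. The same held for 20.8% (19.6 to 22.1) of MES-only and 16.0% (15.2 to 16.9) of HB-only regions. Distal regions, beyond 20 kb from a TSS, made up 20.7% of the shared, 42.6% of the MES-only and 51.9% of the HB-only regions. The intervals of the 3 classes did not overlap for either measure, so HB-only regions lay farthest out and shared regions closest in. With only sites as wide as their list's median or wider, the promoter intervals of the changed classes overlapped. They were 40.0% (37.1 to 43.0) for MES only and 36.8% (35.3 to 38.3) for HB only. The median distance to a TSS was 269 bp for shared, 14520 bp for MES-only and 21833 bp for HB-only regions.

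With distance from a TSS, sharing fell away in steps. Within 100 bp of a TSS 91.0% of 6201 regions were shared and 4.68% were HB only. At 100 to 500 kb 35.9% of 2405 regions were shared and 45.1% were HB only. MES-only regions changed less along this scale, from 4.37% within 100 bp to 25.4% at 1 to 2 kb and 19.0% at 100 to 500 kb. The 157 regions beyond 500 kb were 37.6% shared, 33.8% HB only and 28.7% MES only. Introns held 41.6% of MES-only and 43.8% of HB-only regions, and sequence between genes held 47.1% and 47.4%.

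**Figure D1:**
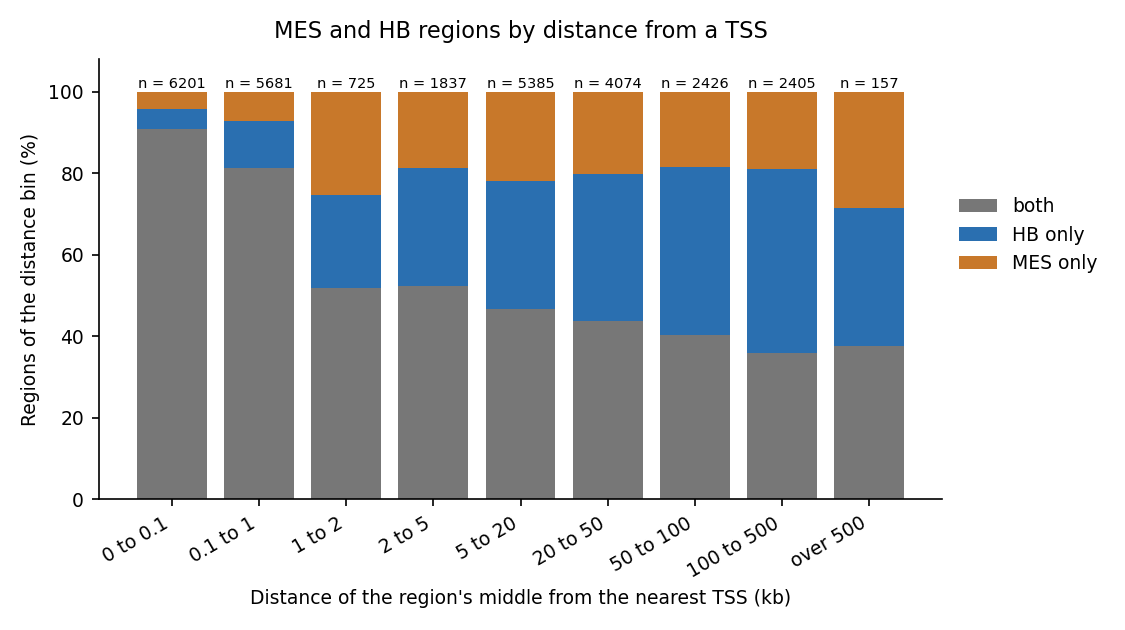
Share of regions (%) that were shared (grey), HB only (blue) or MES only (orange) in each bin of distance between the region's middle and the nearest TSS (kb), with the number of regions above each bar. The shared part shrinks from 91.0% within 0.1 kb to 35.9% at 100 to 500 kb, and the HB-only part widens from 4.68% to 45.1%; in the last bin, of 157 regions, it is 33.8%.

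CpG-rich sequence separated the classes as well. A central 500 bp with at least 50% GC and an observed to expected CpG ratio of at least 0.6 was counted as CpG-rich. It was found in 55.0% of shared, 14.6% (13.6 to 15.7) of MES-only and 11.3% (10.6 to 12.1) of HB-only regions. Among promoter regions alone the shares were 82.5% for shared regions, 51.1% for MES only and 52.0% for HB only, so that promoters open at 1 stage alone were CpG-rich in a smaller share than promoters open at both. Beyond 2 kb of a TSS the median GC content was 50.6% in MES-only and 50.4% in HB-only regions, against 53.4% in shared regions.

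Changed sites were narrow sites, as the single property that the lists give, the width of a site, showed. The median MES-only site was 400 bp wide and the median HB-only site 600 bp. In shared regions the MES site had a median of 900 bp and the HB site 1100 bp. Of the MES sites of at most 300 bp, 54.9% (52.9 to 57.0) had no HB partner, and of those over 1200 bp 1.78% (1.28 to 2.48) had none. For HB sites the same shares were 59.2% (54.5 to 63.6) and 6.08% (5.46 to 6.76).

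Some of the changed regions were not empty in the other list. The deposited interval of 411 MES-only sites (9.88%, 9.01 to 10.8) overlapped an HB interval whose middle lay too far away to merge, and 317 HB-only sites (4.57%, 4.10 to 5.08) overlapped a MES interval. Without them 3751 MES-only and 6625 HB-only regions remained. Sites of at least 1200 bp that overlapped nothing in the other list numbered 218 in HB and 9 in MES, and at 1500 bp the numbers were 38 and 0. When only sites as wide as their list's median or wider were taken, 1047 MES-only, 4079 HB-only and 10015 shared regions were left.

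The consensus of GATA factors marked the regions open in HB alone. Beyond 2 kb of a TSS, AGATAA was found in the central 500 bp of 41.4% (40.1 to 42.6) of 5829 HB-only regions. It was found in 17.5% (16.3 to 18.9) of 3295 MES-only and 20.5% (19.6 to 21.4) of 7160 shared regions, and in 27.4% of all 16284. The same letters read backwards, AATAGA, served as a control of base composition and were found in 15.4%, 16.8% and 13%, in the same order of classes. GATA matches were thus close to the backward letters in MES-only regions and far above them in HB-only regions. Among 20463 promoter windows of 300 bp from RefSeq, 9.58% held AGATAA.

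A further 5 consensus sequences had HB-only intervals above the MES-only ones. MEIS (CTGTCA) was found in 41.4% (40.1 to 42.6) of HB-only and 32.4% (30.8 to 34.0) of MES-only regions, with 34.2% in shared regions. TEAD (CATTCC) was found in 36.5% (35.3 to 37.7) of HB-only and 28.4% (26.9 to 30) of MES-only regions, while its backward letters CCTTAC gave 14.6% and 14.8%. The TAL1-type E-box (CAGATG) had 39.4% against 35.4%, AP-1 (TGANTCA) 17.6% against 15.1%, and TCF/LEF (CTTTGATC), the consensus of the nuclear effectors of Wnt signalling, 4.58% (4.07 to 5.15) against 2.37% (1.90 to 2.94). Of these, AP-1 alone turned the other way under an alternative, at 17.4% in HB only and 18.2% in MES only when only sites as wide as the median of their list, or wider, were taken. The MEIS difference narrowed to 4.63 percentage points under the same alternative. The backward letters gave 25.7% in HB-only and 23.2% in MES-only regions for MEIS, 10.8% and 11.2% for the TAL1-type E-box, 11% and 11.3% for AP-1, and 1.56% and 1.27% for TCF/LEF. Backward letters could themselves differ, as those of RUNX did at 7.27% (6.64 to 7.97) and 5.64% (4.91 to 6.49) and those of OTX/GSC at 17.3% (16.4 to 18.3) and 14.0% (12.9 to 15.2). Over all 16284 regions the shares were 36.4% for MEIS, 32.5% for TEAD, 36.2% for the TAL1-type E-box, 16.2% for AP-1 and 3.52% for TCF/LEF.

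The other 3 with separate intervals stood higher in the regions that were open in MES alone. The octamer (ATGCAAAT) was found in 5.07% (4.37 to 5.87) of MES-only and 2.52% (2.15 to 2.96) of HB-only regions, with 3.65% in shared and 3.53% in all regions. The CTCF consensus, bound by the factor of chromatin loop anchors, was found in 11.5% (10.4 to 12.6) of MES-only, 5.06% (4.53 to 5.65) of HB-only and 9.89% of shared regions, and in 8.48% of all. With sites of median width or wider alone the CTCF shares were 5.41% in MES-only and 3.84% in HB-only regions. ZIC (CCTGCTG), the consensus of zinc finger factors of the epiblast and neural plate, had 32.7% (31.1 to 34.3) against 27.5% (26.4 to 28.6), with 30.1% over all regions. Backward letters gave 0.121% in MES-only and 0.120% in HB-only regions for the octamer, 1.31% and 1.25% for ZIC, and 0% in both for CTCF. Such low shares in both classes make them poor controls for these 3. GC boxes (GGGCGG) did not separate the changed classes, at 20.4% and 19.2%, and were found in 35.9% of shared regions. Its backward letters, GGCGGG, are a GC-rich string of the same make-up and gave 20.4%, 19.2% and 36.0% in MES-only, HB-only and shared regions, so they are a poor control for it.

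For the remaining 13 consensus sequences the intervals of HB-only and MES-only regions overlapped. They were ETS (CCGGAAG), T-box (TCACACCT), SOX (CCATTGT), E-box (CAGCTG), RUNX (TGTGGTT), CEBP (TTGCGCAA), NFY (CCAAT), NRF1 (GCGCATGC), FOX (TGTTTAC), OTX/GSC (GGATTA), ESRRB (TCAAGGTCA), CDX/HOX (TTTATGG) and HAND/TWIST (CATCTGG, which contains the TAL1-type E-box). T-box letters, to which brachyury and EOMES bind, were found in 5.27% (4.72 to 5.87) of HB-only and 4.13% (3.5 to 4.86) of MES-only regions. ETS letters, to which ETV2 binds, were found in 3.83% (3.36 to 4.35) and 3.46% (2.89 to 4.14), and RUNX letters in 10.4% (9.69 to 11.3) and 9.14% (8.20 to 10.2). OTX/GSC letters were found in 17.3% of HB-only and 17.5% of MES-only regions, and in 15.9% and 22.9% with sites of median width or wider alone. The shares over all regions were 4.52% for T-box, 4.90% for ETS and 9.41% for RUNX, and those of the other consensus sequences lay between 0.154% for CEBP and 46.8% for NFY.

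**Figure D2:**
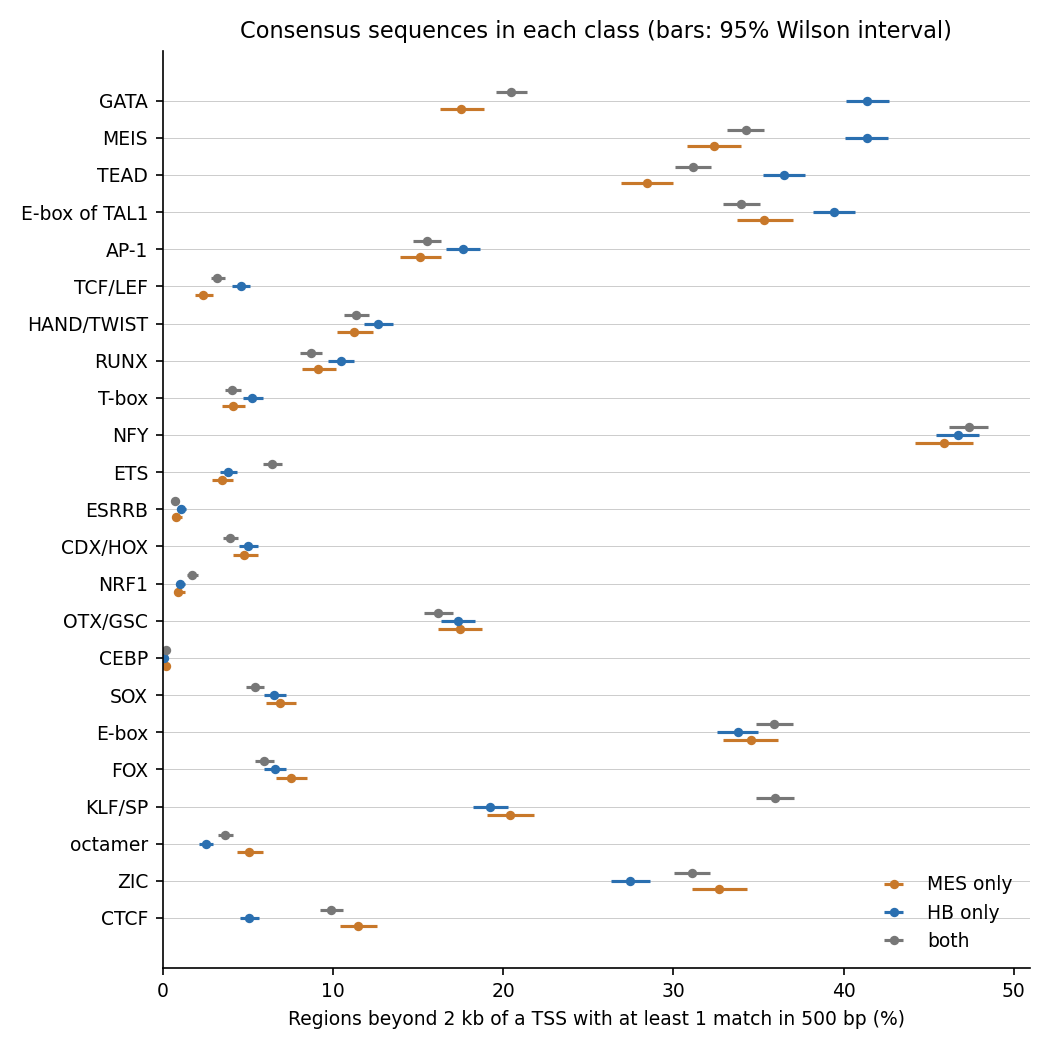
Share (%) of regions beyond 2 kb of a TSS with at least 1 match to each of 23 consensus sequences in the central 500 bp, for MES-only (orange), HB-only (blue) and shared (grey) regions, with 95% Wilson intervals as bars and the consensus sequences ordered by HB-only minus MES-only share. GATA stands apart at the top, at 41.4% in HB-only against 17.5% in MES-only regions, and CTCF is lowest, at 5.06% against 11.5%.

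Within HB-only regions the GATA matches were crowded towards the middle. Per 100 HB-only regions there were 15.8 matches within 50 bp of the middle and 7.0 at 200 to 250 bp. In MES-only regions the numbers were 3.28 and 4.31, without a peak at the middle. TEAD matches went from 13.2 at the middle to 7.0 at the edge in HB-only regions. In MES-only regions they stood at 7.89 within 50 bp, 8.19 at 50 to 100 bp and 5.07 at the edge. CTCF matches peaked most in MES-only regions, at 5.86 against 0.243, and octamer matches stood at 1.73 against 0.759 there and at 0.446 against 0.635 in HB-only regions.

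**Figure D3:**
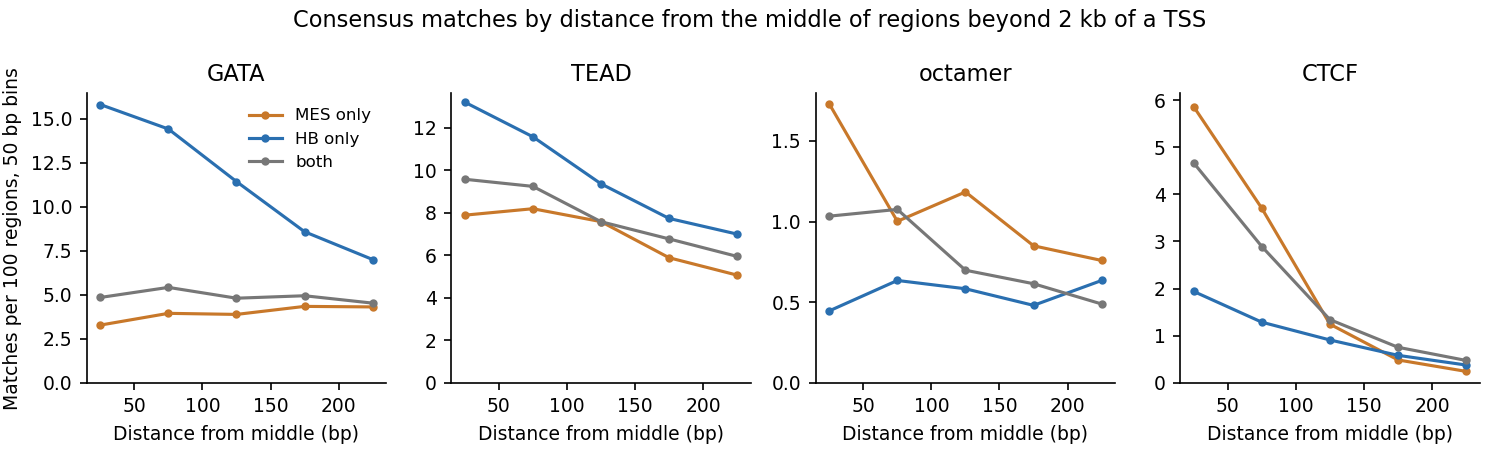
Matches per 100 regions in bins of 50 bp of distance from the region's middle (bp), for GATA, TEAD, octamer and CTCF in MES-only (orange), HB-only (blue) and shared (grey) regions beyond 2 kb of a TSS; the vertical scales differ. The HB-only GATA line falls from 15.8 at the middle to 7.0 at the edge, while the MES-only line stays between 3.28 and 4.34.

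Many HB-only regions held more than 1 GATA match. At least 2 matches were counted in 12.4% (11.5 to 13.2) of HB-only, 2.09% (1.66 to 2.64) of MES-only and 3.13% (2.75 to 3.56) of shared regions. The share with any match climbed with the width of the HB-only site, from 34.1% (31.3 to 37.0) at up to 400 bp to 49.0% (46.2 to 51.9) over 800 bp. CTCF went the other way, from 8.80% (7.25 to 10.6) to 1.11% (0.651 to 1.89), so that the widest HB-only sites held the most GATA and the fewest CTCF matches. TEAD did not order by width, at 34.4% in the narrowest and 34.9% in the widest bin.

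The GATA difference was present at promoters and away from CpG-rich sequence. In promoter regions AGATAA was found in 15.9% (13.9 to 18.2) of 1113 HB-only, 9.34% (7.58 to 11.5) of 867 MES-only and 6.35% of 10627 shared regions. Among regions beyond 2 kb that were not CpG-rich the shares were 42.4% in HB only and 18.0% in MES only. Beyond 20 kb they were 43.5% and 18.4%. GATA and TEAD letters occurred together in 15.9% (15.0 to 16.8) of HB-only regions, and the product of their separate shares is 15.1%.

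The lists of the later stages were not used to form the classes, and they separated HB-only from MES-only regions. A site of HE, the next stage towards blood, overlapped 37.0% (35.9 to 38.2) of HB-only and 21.9% (20.6 to 23.1) of MES-only regions, on 500 bp windows that shared 25% or more of their length. For HP the shares were 16.6% (15.8 to 17.5) and 9.15% (8.32 to 10.1). For MAC the intervals met, at 13.4% (12.6 to 14.2) and 14.7% (13.6 to 15.8). Shared regions overlapped HE in 71.5%, HP in 65.3% and MAC in 58.4%. None of these lists had a site in 56.0% of HB-only, 67.8% of MES-only and 18.7% of shared regions.

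Among HB-only regions the share with GATA letters was close with and without a site in HE. Beyond 2 kb of a TSS, AGATAA was found in 42.0% (39.9 to 44.2) of the 2009 that overlapped an HE site and in 41.0% (39.5 to 42.6) of the 3820 that did not. Those that overlapped both HE and HP held it in 48.5% (44.8 to 52.2) of 705. In shared regions the order was the reverse, at 17.8% (16.7 to 19.1) with an HE site and 23.5% (22.1 to 25) without. The octamer in MES-only regions was found in 2.93% (1.86 to 4.58) of those with an HE site and 5.56% (4.75 to 6.49) of those without.

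Promoters were next read gene by gene. A gene's promoter was called gained when a site of HB and none of MES lay within 1 kb of any curated TSS, lost in the reverse case, and kept when both lists had one. Of 21000 protein-coding genes 782 were gained (3.72%), 442 were lost (2.1%) and 11311 were kept (53.9%). With lists of equal length 652 were gained and 610 lost, and with sites of median width or wider alone 1436 were gained. The widest site at a gained promoter had a median of 700 bp, and at a lost promoter of 500 bp. In 42 of the gained and 5 of the lost promoters the site belonged to a shared region, so that only its reach towards the TSS differed. HE had a site at 73.3% (70.1 to 76.3) of gained promoters, 57.0% (52.4 to 61.5) of lost ones, 11.4% of those with no site in MES or HB, 96.1% of kept ones and 60.3% of all. HP had one at 26.2% (23.3 to 29.4) of gained and 15.2% (12.1 to 18.8) of lost promoters, against 49.0% of all and 86.9% of kept ones.

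The labels of the populations were read through 10 marker genes. The 5 mesoderm markers, T, Mixl1, Mesp1, Eomes and Pdgfra, were kept, beside 53.9% of all genes. In the wider streak and nascent mesoderm list 19 of 28 were kept and 7, Fgf8, Wnt3a, Cdx2, Cdx4, Msgn1, Nkx1-2 and Lefty2, had no site. Of the 5 hemangioblast markers Kdr, Etv2, Lmo2 and Gata2 were kept, and Tal1 alone was gained. The Kdr promoter site was thus listed in the FLK1- population too, at a width of 800 bp in MES and 1200 bp in HB.

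At the reach of 1 kb genes of endothelium and hemangioblast had the most gained promoters of the 15 gene lists, and at 2 kb they had 8. In this list 9 of 33 promoters (27.3%) were gained and 0 lost, read against 3.72% and 2.1% over all genes. The gained ones were the VEGF receptor gene Flt1, its co-receptors Nrp1 and Nrp2, and the transcription factor genes Tal1, Erg, Sox7, Sox17, Mef2c and Nfatc1. The Flt1 site in HB was 1000 bp wide with its middle 12 bp from the TSS, those of Tal1 and Mef2c were 900 bp, and that of Erg was 600 bp. At Nrp1 an 800 bp HB site lay 149 bp from the TSS, and a second, 1300 bp site overlapped a MES site. Kept promoters numbered 9 (27.3%, against 53.9% of all genes), and 15 had no site at either stage, among them genes of mature endothelium such as Cdh5 (VE-cadherin), Pecam1, Tek, Tie1 and Cd34.

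In the blood list 3 of 24 promoters were gained, 0 lost and 8 kept, read against 3.72%, 2.1% and 53.9% over all genes. A further 13 had no site at either stage, which held for 40.3% of all genes. Gained were Gfi1, a repressor of the endothelial program with a 900 bp HB site, Nfe2, an erythroid and megakaryocytic factor with 3 HB sites of 500 to 1000 bp at its start sites, and Meis1, a homeobox factor. The Meis1 site belonged to a shared region whose HB interval, of 1400 bp with its middle 1.44 kb from the TSS, came within the 1 kb reach. Spi1, Gata1, Gfi1b, Myb, Itga2b (CD41), Ptprc (CD45) and the embryonic globin genes Hbb-bh1 and Hba-x had none.

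Of 23 promoters of cardiac and lateral plate genes 4 were gained (17.4%), at Tbx5, Mef2c, Smarcd3 and Twist1, 0 were lost and 11 were kept (47.8%), read against 3.72%, 2.1% and 53.9% over all genes. At a reach of 2 kb 1 was lost. Tbx5, a T-box factor of the heart field, had a 400 bp HB site 736 bp from a TSS, and Twist1, a basic helix-loop-helix factor of mesenchyme, an 800 bp HB site. Mef2c belongs to this list and to the endothelial one. In the paraxial mesoderm list 2 of 15 were gained, Meox2 with a 400 bp and Foxc1 with an 800 bp site, and 0 lost.

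Hox promoters were gained in 7 of 39 (17.9%) and lost in 0, read against 3.72% and 2.1% over all genes. They were Hoxa3, Hoxb5, Hoxb13, Hoxc4, Hoxc5, Hoxd9 and Hoxd10, with HB sites of 400 to 900 bp. The kept ones numbered 7, and 25 had no site within 1 kb at either stage, against 53.9% and 40.3% of all genes. Hox genes share clusters, so neighbouring members are not independent.

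Pluripotency and epiblast genes had promoter changes in both directions, read against 3.72% gained, 2.1% lost and 53.9% kept over all genes. Lost were Pou5f1, with a 600 bp MES site 1.14 kb upstream, and Utf1, an ES cell chromatin factor, with a 300 bp MES site. Gained were Zfp42 (REX1), Prdm14, Dnmt3b, Nr5a2 and Nodal, 5 of 31 (16.1%). The Zfp42 site in HB was 300 bp wide, those of Prdm14 and Nr5a2 were 700 bp, and that of Dnmt3b, a de novo DNA methyltransferase, was 800 bp. At Nodal the HB interval of 900 bp overlapped a MES interval and reached nearer to the TSS. Kept were 17 (54.8%, close to the share of all genes), Sox2 and Nanog among them.

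In the list of the epithelial to mesenchymal switch 14 of 20 promoters (70%) were kept, against 53.9% of all genes, among them the epithelial genes Cdh1, Epcam, Cldn7 and Grhl2. Of this list 2 were lost and 1 gained, read against 2.1% and 3.72% over all genes. Cldn6, a claudin of tight junctions, and Esrp1, an epithelial splicing factor, were lost with MES sites of 500 and 1000 bp, and Twist1 was gained. Cdx1, a caudal homeobox factor of the posterior streak, was lost with a 300 bp MES site, and Foxh1, a partner of nodal-activated SMADs, was gained by a 1300 bp HB interval of a shared region. At a reach of 2 kb the streak list had 0 gained, and the switch list 0 gained and 1 lost.

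In the signalling lists few promoters changed, as over all genes, of which 3.72% were gained and 2.1% lost, and 53.9% were kept. The list of BMP ligands, receptors, Smads and Id genes had 22 of 28 kept and 0 gained or lost. For Wnt and TCF 24 of 30 were kept and 2 gained, the ligand genes Wnt2b with a 400 bp and Wnt5a with a 1500 bp HB site. For Hippo and TEAD 22 of 24 were kept and Wwc1 (KIBRA), an upstream activator of the pathway, was lost with a 300 bp MES site. For Notch 17 of 21 were kept, Hes5 was gained and Heyl was lost, both targets of the pathway.

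Lists of other cell types were read against all genes, of which 3.72% were gained, 2.1% lost and 53.9% kept. No site was found at either stage for 40.3% of all genes. In the neuroectoderm list 5 of 20 were gained (Pax6, Neurod1, Pou3f2, En1 and Sox21), 2 lost (En2 and Hes3) and 8 kept. Its gained share of 25% was close to that of the endothelial list, and the HB sites were 200 bp at Neurod1 and 400 bp at En1 but 1500 bp at Pax6 and 1100 bp at Pou3f2. In the endoderm list Sox17 and Dab2 were gained, 9 of 20 were kept, Foxa2, Gata4, Gata6, Cer1 and Cxcr4 among them, and Afp, Ttr, Apoa1, Foxa1 and Hnf4a had no site. In the fibroblast list, a check for feeder cells, which lack the brachyury-GFP reporter on which both populations were sorted, Loxl1 was gained, 5 of 14 were kept (Col1a1, Col1a2, Thy1, Twist2 and Fbln2), and Col3a1, Dcn, Lum, Postn and Pdgfrb had none. The part that other cells took in these promoter sites was not tested.

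The same lists were then read through the gene nearest to each changed region, with changed promoter regions counted too. Of all 11104 changed regions 62.5% were HB only, a share that follows the lengths of the lists, since it becomes 50% when the HB list is held to its 21949 widest sites. Cardiac and lateral plate genes had 57 HB-only and 8 MES-only regions, or 87.7% HB only, and endothelial and hemangioblast genes 54 and 9, or 85.7%. Close to them were Hox at 85% (17 and 3), Hippo and TEAD at 80.4% (37 and 9), endoderm at 80% (20 and 5), BMP at 77.8% (63 and 18) and blood at 77.1% (27 and 8). Lower down were neuroectoderm at 61.5% (16 and 10), primitive streak at 59.3% (35 and 24), Notch at 56.5% (13 and 10) and the epithelial to mesenchymal switch at 55.9% (19 and 15). Pluripotency genes stood at 73.2% (41 and 15), of which Tbx3 gave 12, and the remaining Wnt and TCF, fibroblast and paraxial mesoderm lists at 69.0% to 70%. Some lists share genes, so their shares are not independent. Bmp2 and Bmp4, with 9 and 3 HB-only regions, are in the cardiac and BMP lists. Gata6, with 6, is in the cardiac and endoderm lists. With lists of equal length, read against 50%, the shares were 82.1% for endothelial, 80.3% for cardiac, 75% for Hox, 72.5% for BMP, 72% for endoderm, 70.6% for blood and 68.6% for Hippo and TEAD. They were 59.3% each for Wnt and TCF and for paraxial mesoderm, 54.5% for pluripotency, 52.7% for primitive streak, 50% for fibroblast, 48.5% for the epithelial to mesenchymal switch, 46.2% for Notch and 43.5% for neuroectoderm genes.

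**Figure D4:**
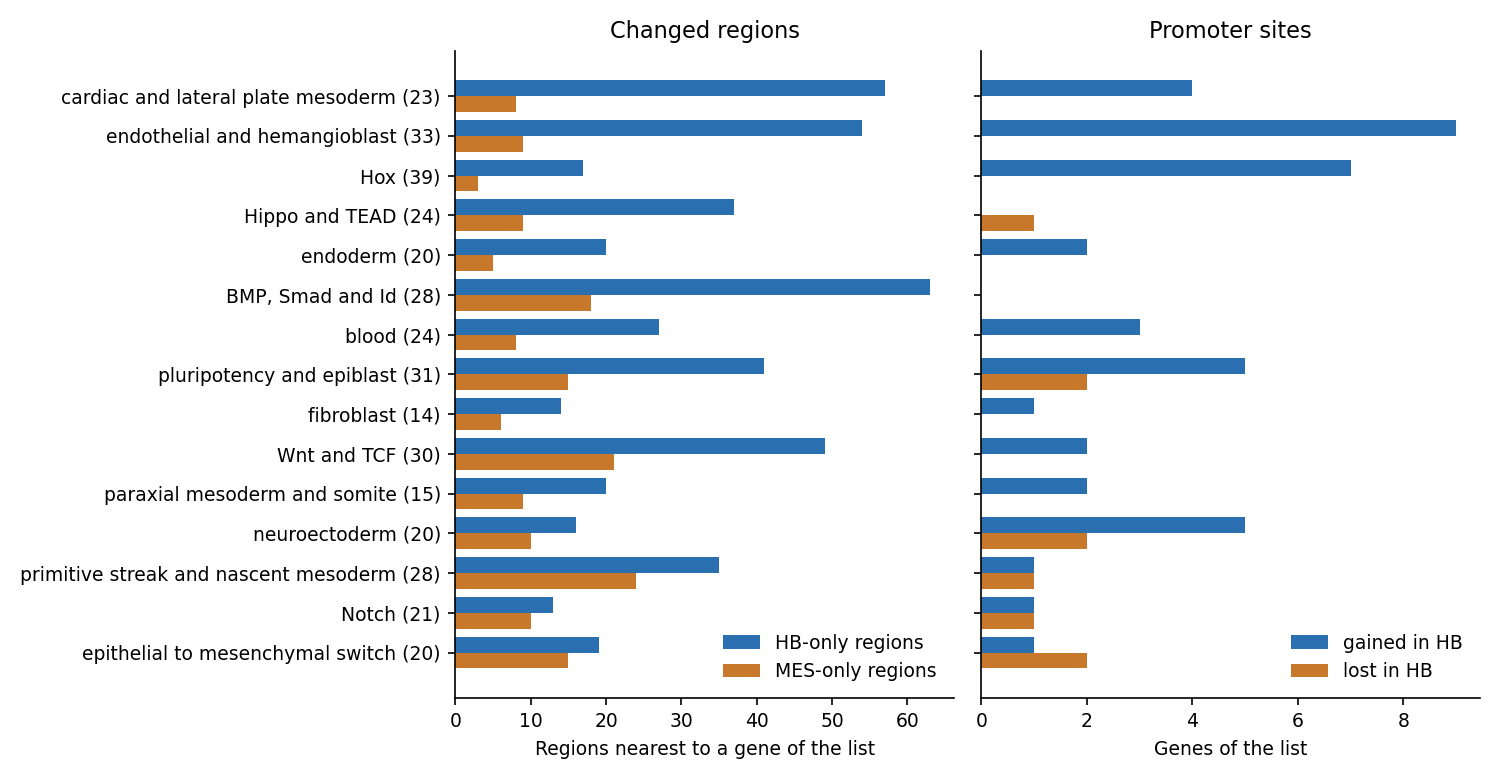
Left, number of HB-only (blue) and MES-only (orange) regions nearest to a gene of each list, with the number of genes in brackets; right, number of genes whose promoter site was gained (blue) or lost (orange) in HB. Lists are ordered by the HB-only share of changed regions, from the epithelial to mesenchymal switch at 55.9% to cardiac and lateral plate mesoderm at 87.7%, and the endothelial list has the most gained promoters, 9.

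BMP genes had many changed regions but no changed promoter. In this list 12 of 28 genes were nearest to at least 3 HB-only regions, which held for 545 of 21000 genes (2.6%). At least 3 MES-only regions were nearest to 2 genes of the list and to 155 of all genes (0.738%). Genes with at least 3 HB-only regions were not particular to this list. They numbered 9 of 23 in the cardiac and 8 of 33 in the endothelial list, but 1 of 21 in the Notch list. When regions within 100 kb of a TSS alone were counted, the background numbers were 353 and 99, and with lists of equal length 357 and 232. The BMP list itself was not recounted under these alternatives. The ligand genes Bmp2 and Bmp4 had 9 and 3 HB-only regions, no MES-only region, and no promoter site at either stage. The inhibitory Smads had changes of both kinds, with 8 HB-only and 4 MES-only regions at Smad7 and 6 and 3 at Smad6. The homeobox targets Msx1 and Msx2 had 5 HB-only regions each, and the antagonist Nog had 3.

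Endothelial genes with most HB-only regions were Nrp1 and Nrp2 with 7 each, Nfatc1 with 6, Kdr with 5 and Flt1 with 4. Their MES-only regions numbered 1, 2, 0, 0 and 1. In the cardiac list Gata6 had 6 HB-only regions, Tbx5 5, and Isl1 and Foxf1 4 each, all with 0 MES-only regions. Tbx2 had 7 HB-only and 5 of the list's 8 MES-only regions. Gata4, a cardiac GATA factor, had 4 shared regions and no changed one. In the blood list Runx1, the factor needed for hemogenic endothelium to form blood, had 7 HB-only and 3 MES-only regions, and Meis1 had 5 and 0.

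The 12 genes with most HB-only regions had 9 to 14 each. They were Bcor (14), a BCL6 corepressor and polycomb subunit, Tle3 (13), a Groucho corepressor, Tbx3 (12), a T-box repressor, Pard3 (11), a polarity scaffold, Rybp (11), a polycomb subunit, Galnt17, Magi1, Med13l and Tead1 (10 each), and Bmp2, Camk1g and Irs2 (9 each). Ties were taken by symbol, so Septin9, also with 9, was left out. Their MES-only regions numbered 0 to 4. At Bcor the regions lay up to 345 kb from the TSS, and 6 of the 14 held AGATAA. At Tead1 they lay up to 115 kb away, 6 of the 10 held the TEAD letters, and the widest site was 1800 bp. An HE site was overlapped by 8 of 14 at Bcor, 6 of 9 at Irs2 and 6 of 10 at Tead1, but by 2 of 9 at Bmp2, 2 of 10 at Med13l and 0 of 9 at Camk1g, beside 37.0% of all HB-only regions. The TEAD letters were held by 8 of 11 at Rybp and 7 of 11 at Pard3, but by 2 of 12 at Tbx3 and 1 of 9 at Irs2. Over the HB-only regions beyond 2 kb the shares were 36.5% for TEAD and 41.4% for GATA letters. Genes with large gaps around them collect more regions, and the number per gene was not scaled for this.

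The genes with most MES-only regions had fewer of them. Crb2 (8), a Crumbs polarity protein of the epiblast, Gse1 (7), Dnah8 and Zfhx3 (6 each) led, and Adgrl2, Arhgef16, Engase, Grhl2, Irf8, Tbx2, Tomm20 and Zfp36l2 had 5 each. These 12 were the genes with at least 5 (0.0571% of all). Crb2 and Arhgef16 also lost their promoter sites. All 8 regions at Crb2 lay within 79.3 kb of its TSS, against 1 HB-only region. Grhl2, a grainyhead factor of epithelium, had 5 MES-only and 1 HB-only regions. At Gse1, Zfhx3, Irf8, Tbx2 and Tomm20 there were 5 to 7 HB-only regions as well, so changes at these genes went both ways. AGATAA was found in 0 to 2 of the regions of each of the 12, beside 17.5% of all MES-only regions beyond 2 kb.

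Around Kdr every site but the promoter was HB only. Within 100 kb of its TSS there were 6 HB-only, 1 shared and 0 MES-only regions. Inside the gene HB sites lay 16.0 and 24.0 kb downstream of the TSS and were 400 and 700 bp wide, and upstream a pair at 26.5 and 30.2 kb had 1000 and 1500 bp. The site of 1500 bp is the stretch printed above. It was absent from HE, HP and MAC by the window rule, while the promoter was listed in all 5.

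The other hemangioblast genes differed from Kdr and from each other. At Tal1 the HB-only promoter region, chr4:115056516-115057015, lay between shared regions 3.68 kb upstream and 7.12 kb downstream, and was also found in HP and MAC. At Lmo2, a bridging partner of TAL1 and GATA factors, all 3 HB-only regions lay 64.0 to 85.9 kb upstream, and the 3 shared regions downstream. At Gata2 the sites 3.95 kb upstream and 4.67 kb downstream were shared, and widened from 800 to 1500 bp and from 700 to 900 bp. A further 2 HB-only regions lay 57.4 and 80.6 kb upstream, with sites of 800 and 500 bp, and 1 MES-only region 42.3 kb downstream, all nearer to other genes. At Etv2, the ETS factor that starts the hemangioblast program, there was no HB-only region within 100 kb, beside 14 shared and 1 MES-only regions. Of these, 2 shared regions were nearest to Etv2 itself, and all the others were nearer to other genes.

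At the mesoderm genes the promoters were shared, and the HB-only regions within 100 kb lay at a distance, some of them nearer to other genes. Eomes, a T-box factor of the streak, had 6 shared, 4 HB-only and 0 MES-only regions within 100 kb, the HB-only ones 33.1, 56.2 and 62.1 kb upstream and 11.6 kb downstream, with widths of 300 to 900 bp. T had 8 shared, 2 HB-only and 1 MES-only regions, of which 4 shared and 1 HB-only were nearest to T itself. That HB-only region, upstream of the gene, had an 800 bp site. The T promoter site was 1000 bp in MES and 1200 bp in HB, and had no match in HE by the window rule. At Mixl1, a homeobox factor of the streak, 8 regions were shared, 3 were HB only and 1 was MES only. By nearest gene, 1 shared region and none of the changed ones belonged to Mixl1.

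At Mesp1 the classes overstate the change. A single HB interval of 2500 bp, 4.62 kb upstream of the TSS, spanned 2 MES sites of 700 and 900 bp at 3.84 and 5.34 kb. Since their middles lay too far apart to merge, they were counted as 2 MES-only and 1 HB-only regions. At Pou5f1 the MES-only region, chr17:35504642-35505141, had no HB site within 11.1 kb. Nanog, a homeobox factor of the pluripotent state, kept a promoter site of 1100 bp in MES and 800 bp in HB, with 8 shared, 3 HB-only and 3 MES-only regions within 100 kb. Runx1 had 1 shared and 1 HB-only region within 100 kb of its most upstream TSS, and the HB-only one, 47.7 kb into the gene, had a 1200 bp site.

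**Figure D5:**
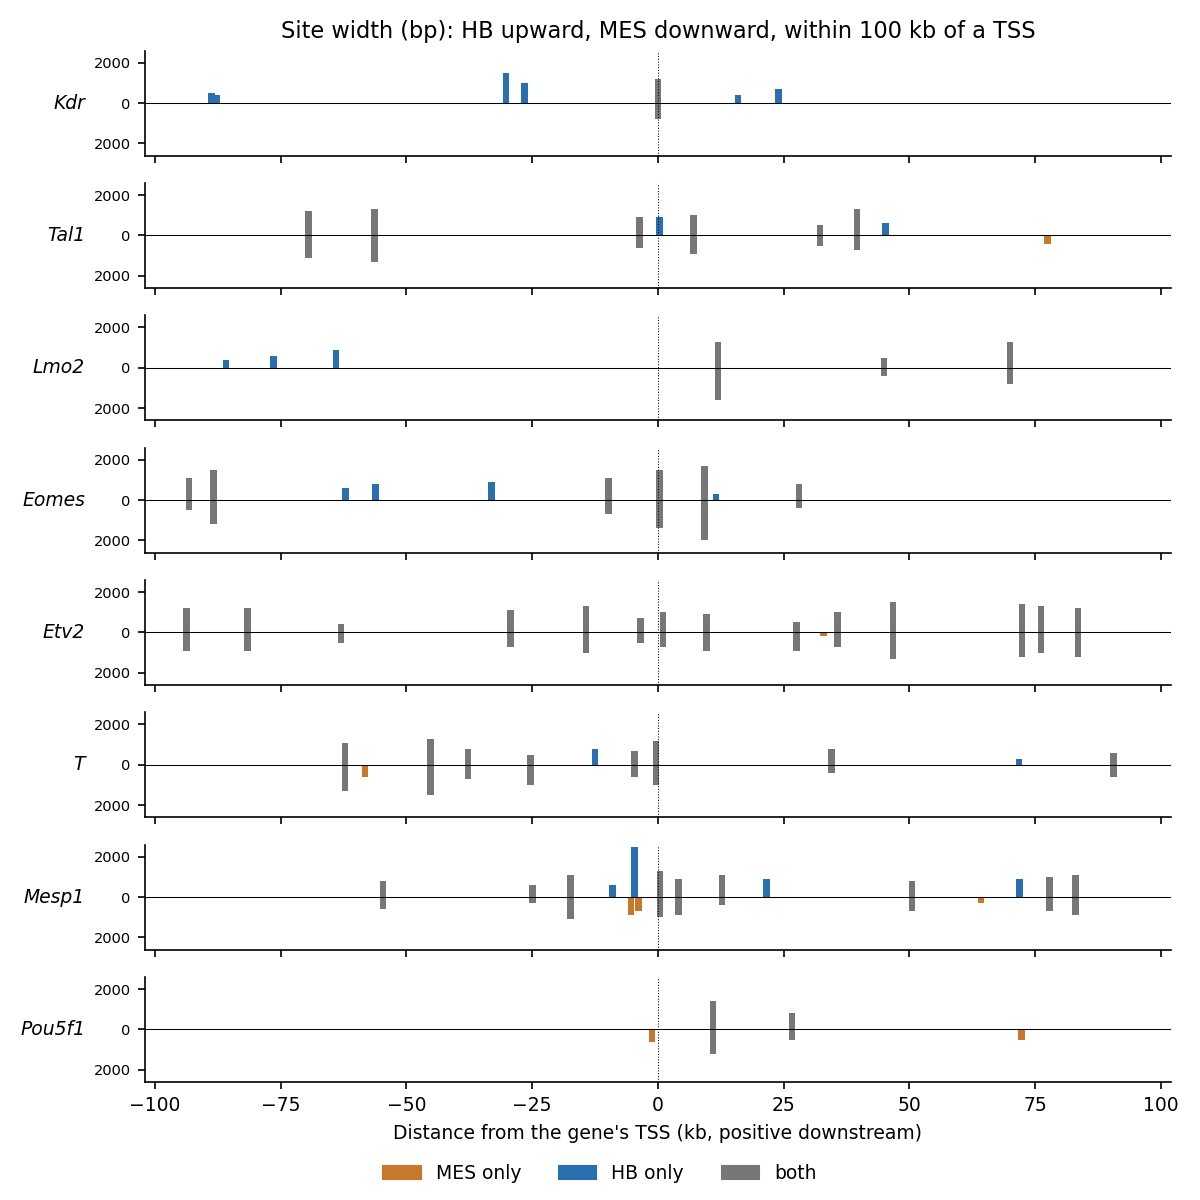
Sites within 100 kb of the TSS of 8 genes, placed by the distance of the region's middle from the TSS (kb, positive downstream); bars show the width (bp) of the HB site upward and of the MES site downward, in grey for shared, blue for HB-only and orange for MES-only regions. Kdr has 6 HB-only bars around 1 shared promoter bar, Etv2 has shared bars and 1 MES-only bar, and at Mesp1 a 2500 bp HB bar stands over 2 MES bars.

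Sites present at both stages were mostly wider in HB. Of 17787 shared regions 79.2% had a wider HB site, 9.26% a narrower one and 11.5% the same width, and the median difference was 200 bp. The difference was at least 500 bp in 8.43% towards HB and in 0.231% towards MES. The whole HB list was wider as well, with a median of 900 bp against 800 bp, and the part of sequencing depth in this shift was not tested, because read counts were not used here.

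The largest gains of width were at 5 genes. The site 0.900 kb upstream of Myc, the growth regulator, was 200 bp in MES and 2500 bp in HB. A site 16.1 kb upstream of Adgrg3, an adhesion receptor, went from 200 to 1600 bp, one at the Rbpms2 promoter, an RNA-binding protein gene of heart and smooth muscle, from 400 to 1800 bp, one at Fnbp1l from 700 to 2000 bp, and one at Alpk3, a kinase gene of heart muscle, from 400 to 1700 bp. The largest losses were smaller. Sites at Kcnh4 (1100 to 400 bp) and Arhgef7 (1300 to 600 bp) were 700 bp narrower in HB, and those at Sowaha, Ggt6 and Gfra2 600 bp narrower, among 10 regions tied at that value.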

How the data were processed

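DNaseI-seq gave 1 list per stage; that of MAC combines 2 replicates per the labels. The authors trimmed reads with CutAdapt, aligned them to mm10 with Bowtie (SHRiMP for colour-space reads) and called sites with DFilter in 100 bp bins; HOMER is also named in the submitters' notes, and versions are not given in the sources used here. The deposited files hold positions alone (where each site starts and ends on mm10). The study gives aligned read totals, which are not analysed here, and the middle of a site stood in for its summit. Regions, shares, Wilson intervals (95%), distances to curated RefSeq TSS of GRCm38.p6, consensus matches on both strands and widths were computed in Python 3.11.15 with numpy 2.4.6, scipy 1.17.1, pysam 0.24.0 and matplotlib 3.10.9, and the scripts were checked on simulated sites. Named genes were the 12 with most HB-only and most MES-only nearest regions, list members with a changed promoter, 12 stage genes, and the 5 largest width changes each way; genes outside this rule are list examples picked after their values were seen. Members, lists and rules were chosen with earlier results of these data known. Alternatives covered merging overlap, deposited intervals, wide sites, lists of equal length, TSS set, reach and search width; 2 added after seeing the data are the removal of changed regions that overlap the other list and the HB-only share of changed regions.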

Additional observations from a re-analysis of the deposited data

How the results depend on the processing

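No paired analysis was possible because each stage had 1 sample, so no replicate could be left out and nothing was tested. The order of promoter shares (shared, then MES only, then HB only) held under each of the 8 alternatives. With sites of median width or wider the MES-only and HB-only intervals overlapped. The promoter share of MES-only regions was 20.8% and became 23.7%, 19.3% and 16.9% with merging at 250 bp, at 1 bp and by deposited intervals, 40.0% with sites of median width or wider, 29.0% with every annotated TSS, 16.4% with a 1 kb reach, and 16.9% without changed regions that overlap the other list. For HB-only regions, 16.0% became 18.1%, 15.0%, 14.2%, 36.8%, 24.8%, 13.7% and 14.2% in the same order, and 17.6% with lists of equal length. For shared regions, 59.7% became 79.2% with sites of median width or wider, 62.1% with lists of equal length, 66.5% with every annotated TSS and 57.6% with a 1 kb reach. Sites of median width or wider gave 1047 MES-only, 4079 HB-only and 10015 shared regions and 1436 gained promoters, while lists of equal length gave 652 gained and 610 lost against 782 and 442; the first alternative removes sites, and a narrow partner counts as missing. Genes with at least 3 HB-only regions numbered 353 within 100 kb and 357 with lists of equal length, against 545, and those with at least 3 MES-only regions 99 and 232, against 155. Counting any overlap with a deposited later interval gave 31.0% (HE), 11.1% (HP) and 16.5% (MAC) of MES-only, 43.0%, 18.0% and 15.0% of HB-only, and 79.2%, 66.2% and 60.5% of shared regions; the cause was not tested. The GATA difference between HB-only and MES-only regions lay between 18.3 and 26.3 percentage points over 7 alternatives and the main setting. With sites of median width or wider, CTCF moved from -6.41 to -1.58 points, MEIS from 8.98 to 4.63 and OTX/GSC from -0.124 to -7.07, and lists of equal length gave -8.43 for CTCF. AP-1 reversed, at -0.782 points, under the same alternative; the causes were not tested. With no heights in the lists, a site just under the caller's threshold at 1 stage counts as absent there.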
